A study of Arabidopsis thaliana with 4 samples.

Results

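The genes around the centromere of chromosome 5 of Arabidopsis thaliana were examined, taken as all loci numbered from AT5G27700 to AT5G35300. Each array probe was assigned to a locus through the transcript accession that it carries. Of the 165 loci of this window with a probe, 105 had a probe well above background, among 20525 genes tested on the whole array. A probe was tested when at least 1 of the 2 RNAs was well above background on at least 3 of the 4 arrays. The other 60 loci were too dim to be tested. The 4685 other tested genes of chromosome 5 served as the comparison.

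RNA of seedlings labelled vim1,2,3, a triple mutant per the series title, was hybridised in the Cy5 channel together with RNA of wild-type Col seedlings in the Cy3 channel. The sources used here do not name the alleles. All plants were 14-day-old seedlings grown under a 16 h day and an 8 h night and collected 6 h into the light period, and the 4 arrays are described as independent biological samples. Whole seedlings were sampled, so fewer cells of a type and less RNA per cell cannot be told apart. Ratios are log2 values of the RNA labelled vim1,2,3 relative to Col. The dyes were never swapped, so a dye effect on a probe does not cancel.

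Pericentromeres flank the centromere and are packed into heterochromatin. Their DNA is rich in transposable elements and is densely methylated at cytosines. VIM proteins (also called ORTHRUS) bind hemimethylated CG sites and are needed for the methyltransferase MET1 to copy CG methylation after replication. Loss of this methylation is known to release transposable elements and some genes near them from silencing. Sequences of the genes are not used here.

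The window was checked against the annotation. RefSeq's gene table (assembly TAIR10.1) lists 593 of its 785 loci (75.5%) as pseudogenes, against 358 of 7635 loci (4.69%) elsewhere on chromosome 5. The pseudogenes carry no transcript accession in that table, so the 165 loci with a probe are all protein-coding. The results below therefore concern the protein-coding genes that lie between annotated pseudogenes, and the pseudogenes themselves are not analysed here. The header of the arrays names an older build than TAIR10.1, so only names and the order of genes were taken from it and no coordinates are given.

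Before the window, the genotype was checked. VIM1 (AT1G57820) averaged -1.76 ± 0.77 (SD, n = 4, limma adjusted p = 0.0254) and was below 0 on each array. The call of VIM1 was lost without array 1 (adjusted p = 0.0769), without array 3 (0.129) and on arrays 1 and 2 only (0.13). VIM2 (AT1G66050) had ratios of -1.42, -1.31, 1.82 and 1.11 on arrays 1 to 4, and VIM3 (AT5G39550) had -1.06, -1.29, 1.61 and 0.25. Both were thus below 0 on arrays 1 and 2 and above 0 on arrays 3 and 4, which goes against the label of those arrays; where the probes lie relative to the mutations was not tested. VIM4 (AT1G66040), a close relative, was likewise below 0 on arrays 1 and 2 (-0.96 and -1.63) and above 0 on arrays 3 and 4 (2.22 and 0.61). For VIM5 (AT1G57800) the fall was at least 3.57-fold (adjusted p = 0.00315) and VIM6 (AT4G08590, ORTHL) was not called (0.40 ± 0.70). Results are given with all 4 arrays, and the main counts also with arrays 1 and 2 only.

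Of 15 tested genes of heterochromatin silencing (MET1, the remodeller DDM1, listed as CHR1, histone methyltransferases, H2A.W histones and others), 0 were called higher and 0 lower by limma, with a median log2 ratio of -0.16. An unadjusted p under 0.05 was found for 3 of the 15, against 33.4% of all genes tested. MET1 (AT5G49160) averaged -0.49 ± 0.35 (SD, n = 4, adjusted p = 0.117). HTA7 (AT5G27670), an H2A.W histone gene just outside the window, averaged 0.74 ± 0.11 (adjusted p = 0.0308) and missed the 2-fold threshold. In the list of marker genes, the 4 leaf genes were well above background in both RNAs on all arrays, partly saturated, and 1 of 4 seed storage genes and 1 of 3 root genes were bright enough to be tested. The flower genes AP3, PI and AG averaged -0.60, -2.20 and -0.92, and only PI was called lower (adjusted p = 0.0113). AP3 had ratios of -1.12, -2.26, -0.14 and 1.10 on arrays 1 to 4. In the RNA labelled vim1,2,3 each of these 3 was well above background on 2 arrays, against 4 arrays in Col. On each array a smaller share of all spots was well above background in that RNA than in Col. The part of the flower gene difference in the results of the window was not tested.

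Genes of the window were higher in the RNA labelled vim1,2,3 more often than genes elsewhere on the chromosome. A gene was called at a Benjamini-Hochberg adjusted p under 0.05 over all genes tested and a change of at least 2-fold, in limma. By this rule 15 of 105 window genes (14.3%) were higher, against 133 of 4685 other chromosome 5 genes (2.84%) and 660 of all 20525 genes tested (3.22%). Lower were 2 window genes (1.9%), against 98 other chromosome 5 genes (2.09%) and 437 of all genes tested (2.13%). The share that rose was thus well above that of the rest of the chromosome, while the share that fell was close to it. The split between rises and falls depends on the processing. With each array centred on its median, 15 window genes were higher and 6 lower, against 132 and 203 other chromosome 5 genes. With the scanner's processed signals the counts were 16 and 3, against 115 and 177. With the deposited log2 ratios fewer genes were tested, and 10 of 97 window genes were higher and 4 lower. Elsewhere on the chromosome the counts were then 117 and 150 of 4552. AGL90, AT5G28235, AT5G30520, AT5G32590 and AT5G33393 rose in the main fit and were not tested with the deposited ratios. Median centring moved the median of other chromosome 5 genes to -0.17. The members were chosen with results of these data known, so no p is given for the window as a whole.

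Of the 105 window genes, 57 were above 0 and 48 below it. Where a gene had several tested probes, as 21 did, they differed by at most 0.92, and in 0 genes were they of opposite sign at 2-fold. The median log2 ratio was 0.04 over window genes, -0.05 over other chromosome 5 genes and -0.05 over all genes tested. By array, the window median was 0.06, 0.12, -0.01 and 0.18 on arrays 1 to 4, against -0.04, -0.06, -0.05 and -0.03 for other chromosome 5 genes. The lower quartiles were alike, at -0.37 in the window and -0.36 in the rest, whereas the upper quartiles were 0.54 and 0.27. The 88 window genes that were not called had a median of -0.05. The window therefore differed in a minority of large rises. Of its 105 genes, 6 were called higher at 8-fold or more, against 24 of the 4685 other chromosome 5 genes. Over all 20525 genes tested, 105 were.

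**Figure D1:**
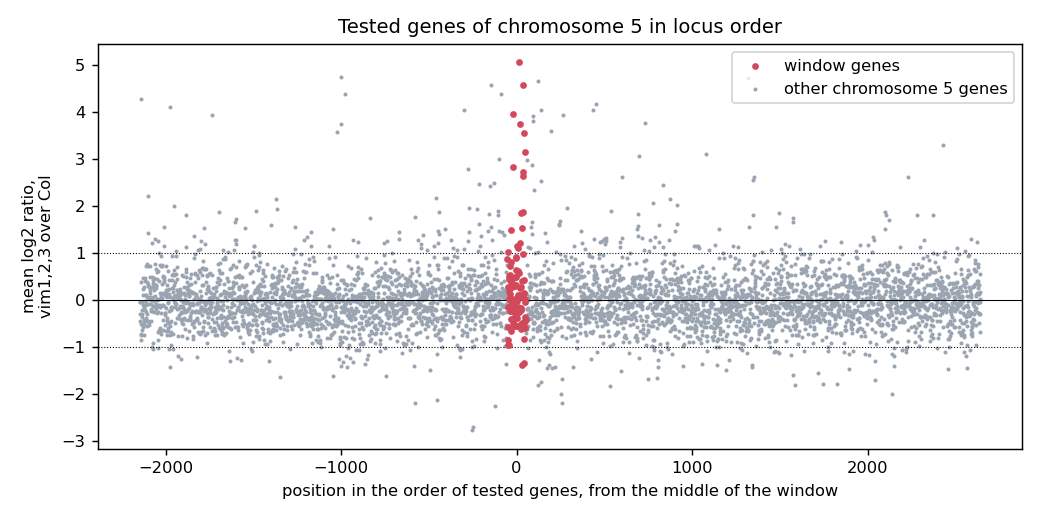
Mean log2 ratio of vim1,2,3 over Col (vertical axis) for each tested gene of chromosome 5, placed by its rank in locus order counted from the middle of the window (horizontal axis). Red points are the 105 window genes and grey points the 4685 others, and dotted lines mark 2-fold. Most window genes lie among the others near 0, while a column of points reaches 5.06.

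The share at 2-fold or more was also larger in the window on each array taken alone. A ratio of at least 2-fold higher was found for 15, 18, 17 and 23 of the 105 window genes on arrays 1 to 4, or 14.3%, 17.1%, 16.2% and 21.9%. Among other chromosome 5 genes the shares were 7.77%, 5.17%, 6.98% and 7.96%, and among all genes tested 8.53%, 5.68%, 7.18% and 8.25%. These single-array counts carry no test. The 105 window genes include 7 with Col well above background on fewer than 3 arrays, tested through the RNA labelled vim1,2,3. The single-array counts were not repeated without them.

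The largest rise was that of AT5G29050. Its ratios were 4.81, 5.72, 4.43 and 5.28 on arrays 1 to 4, a mean of 5.06 ± 0.56 (SD, n = 4, adjusted p = 0.000159) or 33.4-fold. The normalized log2 intensity was 13.02, 13.96, 11.22 and 12.37 in the RNA labelled vim1,2,3, against 8.20, 8.23, 6.80 and 7.09 in Col. The 2 sets of intensities did not overlap, and both RNAs were well above background on all 4 arrays. Neither the files nor the gene table gives this locus a name.

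AT5G34869 rose 23.9-fold, with ratios of 4.54, 4.71, 4.74 and 4.33 (4.58 ± 0.19, SD, n = 4, adjusted p = 5.92e-05). Its intensity was 13.26, 13.54, 12.63 and 12.41 in the RNA labelled vim1,2,3, against 8.72, 8.83, 7.89 and 8.08 in Col. The ratio was thus nearly the same on each array although the intensities of both RNAs were higher on arrays 1 and 2 than on arrays 3 and 4. AT5G28090 rose 15.7-fold, with ratios of 3.60, 3.78, 4.48 and 4.02 (3.97 ± 0.38, adjusted p = 0.000162). AT5G30341 rose 13.4-fold, with ratios of 3.67, 3.54, 3.90 and 3.87 (3.74 ± 0.17, adjusted p = 7.66e-05). AT5G30341 was already bright in Col, at a log2 intensity of 10.02 ± 0.17 against 13.76 ± 0.29 in the RNA labelled vim1,2,3, so its rise did not start from a signal at background.

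AT5G35069 and AT5G35120 lie near the far end of the window. AT5G35069 rose 11.8-fold, with ratios of 3.35, 3.40, 3.92 and 3.59 (3.56 ± 0.26, SD, n = 4, adjusted p = 0.000134). AT5G35120 rose 8.85-fold, with ratios of 2.90, 3.02, 3.73 and 2.93 (3.15 ± 0.39, adjusted p = 0.000511). Between them, in locus order, OS9 (AT5G35080), a gene of the endoplasmic reticulum quality control of glycoproteins, stayed uncalled at 0.14 ± 0.31, as did AT5G35100 at -0.50 ± 0.17.

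**Figure D2:**
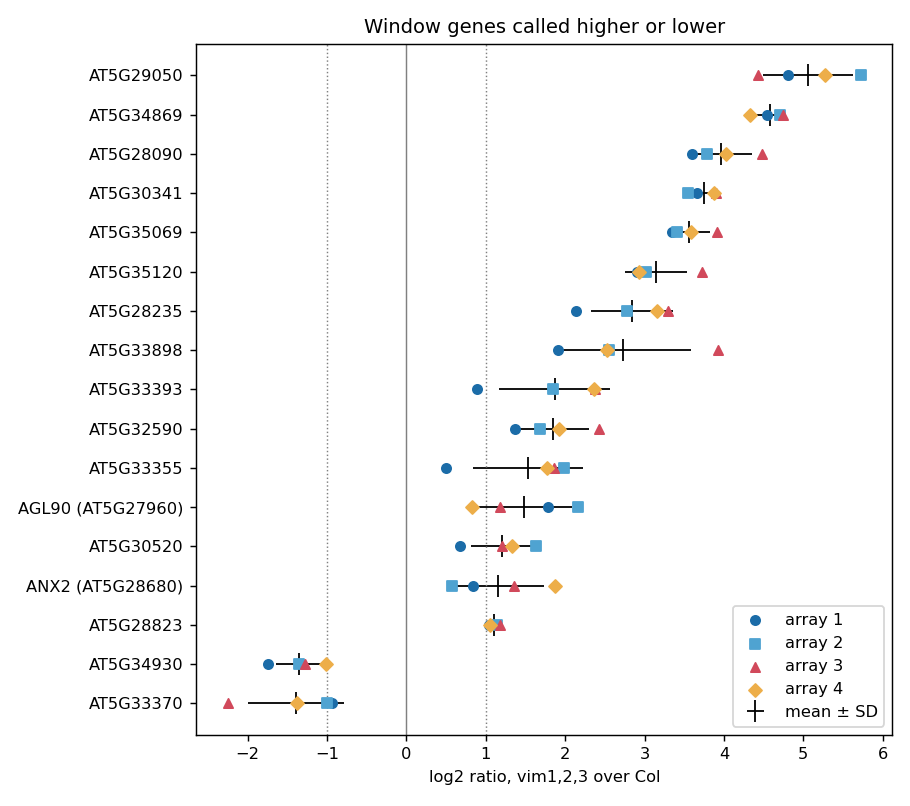
Log2 ratio of vim1,2,3 over Col (horizontal axis) on each of the 4 arrays for the 15 window genes called higher and the 2 called lower. Coloured symbols are arrays, the black tick and bar are the mean ± SD, and dotted lines mark 2-fold. The 15 genes that rose were above 0 on all 4 arrays, and their means run between 1.10 and 5.06.

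A further group of risers was dim or undetected in Col. AT5G28235 was at least 6.92-fold higher, with ratios of 2.13, 2.78, 3.29 and 3.16 (adjusted p = 0.0018), and on none of the arrays was Col well above background. AT5G32590 was at least 3.60-fold higher (1.37, 1.68, 2.43 and 1.92, adjusted p = 0.00785) and AT5G33393 at least 3.65-fold higher (0.89, 1.84, 2.37 and 2.36, adjusted p = 0.0187), with Col again below that level on each of the 4 arrays. These are bounds, because a Col signal at background has no lower limit. A second AT5G33393 probe was too dim in both RNAs to be tested and lay between 0.01 and 0.32. AT5G33898 rose 6.63-fold as measured, with ratios of 1.91, 2.55, 3.93 and 2.53 (2.73 ± 0.85, adjusted p = 0.0101), and Col was well above background on 2 of 4 arrays. AT5G30520 rose 2.31-fold as measured (1.21 ± 0.40, adjusted p = 0.0218), and Col was well above background on 1 array. The sizes of these rises depend on how background is treated. With the scanner's processed signals the log2 ratios were 5.15 for AT5G28235, 3.97 for AT5G33898, 3.90 for AT5G32590, 3.84 for AT5G33393 and 2.83 for AT5G30520. Among the other genes that rose, the same signals gave 5.77 for AT5G29050, 4.77 for AT5G28090 and 1.98 for AT5G28823.

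Such genes entered the test only because they were bright in the RNA labelled vim1,2,3. This held for 6 of the 15 that rose, and 7 of the 105 tested genes. When genes were chosen by the Col signal alone, 9 of 98 window genes (9.18%) were higher, against 121 of 4640 other chromosome 5 genes (2.61%) and 579 of 20306 genes in all (2.85%). The share that fell was then 2 of 98 (2.04%), against 2.05% of other chromosome 5 genes and 2.13% of all. Conversely, the 60 loci too dim to be tested averaged between -0.87 and 0.56, with a median of 0.07. With every locus counted, dim or not, 15 of the 165 loci with a probe were called higher (9.09%), against 2.04% of the 5744 other chromosome 5 loci.

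Only 2 of the genes that rose have a name in the gene table. AGL90 (AT5G27960), a MADS-box transcription factor gene, rose 2.80-fold as measured, with ratios of 1.78, 2.16, 1.18 and 0.83 (1.49 ± 0.60, SD, n = 4, adjusted p = 0.0243). Col was well above background on 1 array for this gene, and with the scanner's processed signals its log2 ratio was 3.33. ANX2 (AT5G28680, ANXUR2), a receptor-like kinase that keeps growing pollen tubes intact, rose 2.23-fold, with ratios of 0.84, 0.57, 1.35 and 1.87 (1.16 ± 0.57, adjusted p = 0.0364). Both lost their call without array 1, 3 or 4 (adjusted p of 0.0761, 0.113 and 0.0583 for AGL90 and 0.0831, 0.156 and 0.11 for ANX2). ANX2 also lost it with median centring, at 0.95, short of 2-fold.

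Unnamed loci made up most of the rises. Among window genes without a name 13 of 72 were higher (18.1%), against 65 of 1433 unnamed genes elsewhere on chromosome 5 (4.54%). Among named window genes 2 of 33 were higher (6.06%), against 68 of 3252 (2.09%). Chosen by Col alone, 8 of 66 unnamed window genes (12.1%) and 1 of 32 named ones (3.12%) were higher. Elsewhere on the chromosome the shares were then 4.3% and 1.86%. On arrays 1 and 2 only, 4 of 72 unnamed (5.56%) and 0 of 33 named window genes were higher, against 0.631% and 0.185% elsewhere. The median log2 ratio was 0.15 over unnamed and -0.07 over named window genes. In the window as in the rest of the chromosome, then, the share of rises was larger among genes without a name in the table. The 2 window genes that fell also had none (2.78%), against 2.44% of unnamed genes and 1.94% of named genes elsewhere on the chromosome.

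AT5G33355 was higher in both RNAs on arrays 3 and 4 than on arrays 1 and 2. It had ratios of 0.50, 1.98, 1.86 and 1.77 (1.53 ± 0.69, SD, n = 4, adjusted p = 0.0276). Its intensity differed far more between arrays than between the RNAs: 7.71, 10.34, 15.27 and 15.62 in the RNA labelled vim1,2,3, against 7.21, 8.36, 13.40 and 13.85 in Col. The RNA labelled vim1,2,3 was saturated on 1 array, and each RNA was well above background on 3. A second AT5G33355 probe was well above background on 2 arrays in each RNA and was not tested. Its ratios were -0.46, 1.07, 2.69 and 2.46. AT5G28823 was the gene just inside the 2-fold threshold, with closely spaced ratios of 1.04, 1.14, 1.18 and 1.06 (1.10 ± 0.07, adjusted p = 0.0108). The highest gene not reaching the threshold was AT5G34829, with ratios of 1.10, 0.91, 0.88 and 1.01 (adjusted p = 0.0169). Col was well above background on 0 arrays for it, so its change is a bound, at least 1.96-fold higher. AT5G34829 was called with median centring (1.14), without background correction (1.01) and with the scanner's processed signals (2.67).

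AT5G34830, next to AT5G34829, differed most between arrays of the 105 genes, and it was chosen after its values were seen. Its ratios were 0.09 and 0.38 on arrays 1 and 2 and 5.14 and 4.94 on arrays 3 and 4. The intensity in the RNA labelled vim1,2,3 was 8.42, 9.70, 14.52 and 14.51, against 8.33, 9.33, 9.37 and 9.57 in Col. The RNA labelled vim1,2,3 was thus close to Col on arrays 1 and 2 and far above it on arrays 3 and 4, while Col was lowest on array 1. These are also the arrays on which VIM2, VIM3 and VIM4 were above 0. The mean of 2.64 ± 2.78 was not called (adjusted p = 0.119), and on arrays 1 and 2 only it was 0.24. A range over arrays as large as that of AT5G34830 was found for 34 of the 20525 genes tested, itself included, and the median range was 0.82.

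**Figure D3:**
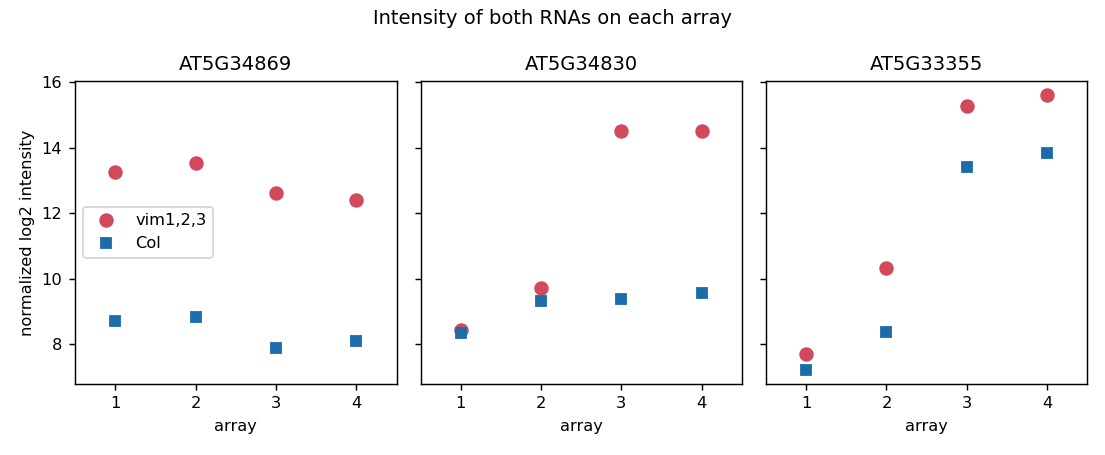
Normalized log2 intensity (vertical axis) of 3 window genes on arrays 1 to 4 (horizontal axis), with circles for vim1,2,3 and squares for Col. AT5G34869 is higher in vim1,2,3 by a similar amount on each array, AT5G34830 on arrays 3 and 4, and AT5G33355 varies across arrays in both RNAs.

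AT5G33370 and AT5G34930 were the genes that fell. AT5G34930 was bright in both RNAs, at a log2 intensity of 12.83 ± 0.30 in the RNA labelled vim1,2,3 and 14.18 ± 0.26 in Col (SD, n = 4). Its ratios were -1.74, -1.36, -1.28 and -1.01, a 2.55-fold fall (-1.35 ± 0.30, adjusted p = 0.0118), which lost its call without array 3 (adjusted p = 0.0861). AT5G33370 had ratios of -0.94, -1.01, -2.25 and -1.38, a 2.63-fold fall (-1.39 ± 0.60, adjusted p = 0.0273). A second probe of AT5G33370 gave -1.75, -0.36, -1.57 and -1.48. The call of AT5G33370 was lost without array 1, 3 or 4 (adjusted p of 0.0591, 0.0989 and 0.108). On arrays 1 and 2 only neither was called, with an adjusted p of 0.392 for AT5G33370 and 0.291 for AT5G34930. AT5G27750 lay just outside the threshold, at -0.96 ± 0.54 (adjusted p = 0.0477), and was called with the deposited ratios (-1.29), median centring (-1.18) and no background correction (-1.003).

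Named genes of the window were grouped by role. As background for the counts, 33.4% of all genes tested and 46.7% of window genes (49 of 105) had an unadjusted p under 0.05 in either direction. Of 3 tested genes for RNA processing, DNA replication and plastid translation, 0 were called by limma, 0 had an unadjusted p under 0.05, and their ratios were 0.27 for emb1644 (AT5G27720, LSM4, a subunit of a ring that binds RNA), -0.15 for EMB2775 (AT5G27740, a replication factor C subunit) and 0.11 for RPS1 (AT5G30510, a plastid ribosomal protein). RPS1 turned to -0.00142 with median centring and to -0.01 without array 3. The median of these 3 was 0.11, against -0.05 over all genes tested.

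Of 8 named genes for plastid function and metabolism, 0 were called by limma, with a median of -0.28, and 3 had an unadjusted p under 0.05. The lowest were PAP26 (AT5G34850), an acid phosphatase, at -0.60 ± 0.28 (SD, n = 4, adjusted p = 0.064), and PTM (AT5G35210), a chloroplast envelope protein with a PHD domain, at -0.60 ± 0.26 (adjusted p = 0.0608). CUE1 (AT5G33320), the phosphoenolpyruvate translocator of plastids, was at -0.49 ± 0.23 (adjusted p = 0.0851) and EGY1 (AT5G35220), a plastid membrane protease and the last tested gene of the window, at -0.43 ± 0.41 (adjusted p = 0.181). PAP26, PTM and CUE1 were below 0 on all 4 arrays, without passing the test.

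Of 9 named genes for transcription and growth control, AGL90 rose and 8 were not called, with a median of -0.16, and 2 had an unadjusted p under 0.05. FRS10 (AT5G28530), of the FAR1 family, was at -0.55 ± 0.45 (SD, n = 4, adjusted p = 0.123). PHL1 (AT5G29000), a regulator of phosphate starvation responses, was at -0.23, -1.56, -0.27 and -0.20, so that array 2 set its mean of -0.57 (adjusted p = 0.192). LSH1 (AT5G28490), a light-dependent regulator of hypocotyl growth, was at -0.41 ± 0.49 (adjusted p = 0.232). The bZIP factor gene BZO2H3 (AT5G28770, bZIP63) scattered widely, at -0.90, 1.72, 0.86 and -1.35 on arrays 1 to 4.

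Of 6 tested genes for secretion, cell wall and cell surface, ANX2 rose and 5 were not called, with a median of 0.21, and 3 had an unadjusted p under 0.05. BIP1 (AT5G28540), a chaperone of the endoplasmic reticulum, was at 0.72, 0.50, 0.70 and 1.67 (0.90 ± 0.53, adjusted p = 0.0531). GUS3 (AT5G34940), a glucuronidase, was at -1.15, -1.43, -0.21 and -0.53 (-0.83 ± 0.56, adjusted p = 0.0675), and it passed both thresholds with median centring (-1.09, adjusted p = 0.0299). CLCg (AT5G33280), a chloride channel, was at -0.52 ± 0.59 (adjusted p = 0.191).

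Rises were found along the whole window, with a larger share in its middle. In the loci numbered from AT5G29000 to AT5G34999, 8 of 28 tested genes were higher (28.6%), against 7 of 77 nearer the borders (9.09%). Of these 8, 4 were tested only through the RNA labelled vim1,2,3. With genes chosen by Col alone the counts were 4 of 23 (17.4%), against 5 of 75 (6.67%), and on arrays 1 and 2 only 3 of 28, against 1 of 77. By the first digits of the locus number, 1 of 23 genes rose in the AT5G27 block, 4 of 44 in the AT5G28 block, 3 of 9 in the AT5G33 block and 2 of 10 in the AT5G35 block, and the other blocks held 2 to 7 tested genes each. The rises did not stop at the borders of the window. Of the 105 tested genes before it (AT5G26080 to AT5G27690) 10 were higher (9.52%), and of the 105 after it (AT5G35320 to AT5G37500) 12 were higher (11.4%), together 22 of 210 (10.5%), and 4 of 208 (1.92%) on arrays 1 and 2 only. Lower were 2 and 3 of these (1.9% and 2.86%, together 2.38%). With genes chosen by Col alone, 17 of 200 genes in the 2 flanks were higher (8.5%). That is close to the 9 of 98 window genes (9.18%) under the same filter. Farther out, 8 of the next 210 genes were higher (3.81%) and 12 lower (5.71%). With both inner flanks set aside, the share over the rest of chromosome 5 was 111 of 4475 higher (2.48%) and 93 lower (2.08%). The first tested window gene, AT5G27700, averaged 0.88 ± 0.08 (n = 4, adjusted p = 0.0208) without reaching 2-fold, and the tested loci next to the window, AT5G27690 and AT5G35320, were at -0.13 ± 0.60 and -0.04 ± 0.72.

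Of the 15 genes that rose, 11 had no called riser as the nearest tested gene on either side. Only 14.3% of window genes were called higher, so a neighbour that rose would be uncommon for any gene. The same count was not made for genes not called, so it does not set the risers apart. AT5G28090 lay between WNK9 (AT5G28080) at 0.47 and AT5G28150 at 0.02, and AT5G34869 between PAP26 at -0.60 and AT5G34882 at 0.42. Among tested genes, AT5G33355 rose next to AT5G33370, which fell. The 4 risers with a called riser as the nearest tested gene formed 2 pairs, AT5G29050 with AT5G30341 and AT5G33393 with AT5G33898. Loci too dim to be tested lie between the genes of each pair.

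Most of the risers lay among annotated pseudogenes. Among the 10 nearest loci, 5 on each side, the 15 genes that rose had a median of 8 pseudogenes, against 5 for the 88 window genes not called. At least 5 pseudogenes were nearby for 13 of the 15 genes that rose (86.7%) and for 51 of the 88 not called (58%). The 2 window genes that fell had such surroundings too, with 8 pseudogenes nearby for AT5G33370 and 6 for AT5G34930. Taken the other way, 13 of 66 window genes with 5 or more pseudogenes nearby were higher (19.7%), and 2 of 35 with 1 to 4 (5.71%). The rest of the chromosome had few genes in such surroundings, and 4 of those 27 were higher (14.8%), against 35 of 1084 with 1 to 4 pseudogenes nearby (3.23%) and 94 of 3574 with none (2.63%). With genes chosen by Col alone, 8 of 60 window genes with 5 or more pseudogenes nearby were higher (13.3%), 1 of 34 with 1 to 4 (2.94%), and 3 of 25 genes with 5 or more elsewhere on the chromosome (12%). On arrays 1 and 2 only the counts were 4 of 66 (6.06%), 0 of 35, and 1 of 25 (4%). Neighbouring genes share surroundings, so these counts are a description and carry no test. Whether probes of these loci also bind RNA of related transposable elements was not tested.

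**Figure D4:**
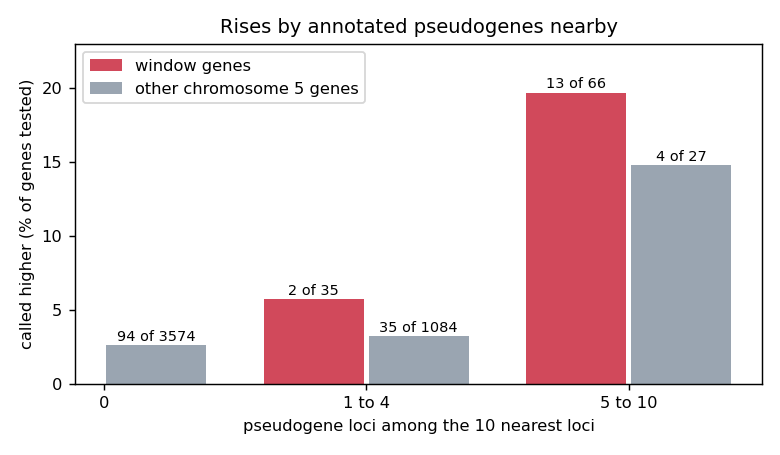
Share of tested genes called higher in vim1,2,3 (vertical axis, percent) by the number of pseudogene loci among the 10 nearest loci (horizontal axis), for window genes in red and other chromosome 5 genes in grey. Labels give genes called of genes tested, and 4 window genes with no pseudogene nearby, none of them called, are not drawn. The share is highest with 5 to 10 pseudogenes nearby in both sets.

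The share of rises stayed larger in the window than elsewhere on the chromosome under each processing alternative run. Over 10 alternatives that kept the 4 arrays, between 9.09% and 15.2% of window genes were higher, against 2.04% to 3.82% of other chromosome 5 genes. With 1 array left out in turn, the shares were 6.67% to 15.2% in the window and 0.726% to 4.4% elsewhere. The count of 15 fell to 9 without array 3 and to 7 without array 4, and on arrays 1 and 2 only it was 4 of 105 (3.81%), against 0.321% of other chromosome 5 genes. AT5G29050, AT5G34869, AT5G28090 and AT5G30341 were called in each of these fits. AT5G35069 and AT5G35120 were called in all but the one on arrays 1 and 2 only, with an adjusted p there of 0.0549 and 0.07. AT5G28235 was likewise not called there (adjusted p = 0.162) and was called in the other fits that tested it; it was not tested with the deposited ratios or with the filters on Col or on both channels. The other 8 each lost their call without array 4, with adjusted p of 0.0613 for AT5G33898 and AT5G28823, 0.058 for AT5G32590, 0.0583 for AGL90, 0.0868 for AT5G33393, 0.0967 for AT5G30520 and 0.11 for AT5G33355 and ANX2. Without array 3, 6 of these 8 lost it, the exceptions being AT5G33898 and AT5G32590.

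**Figure D5:**
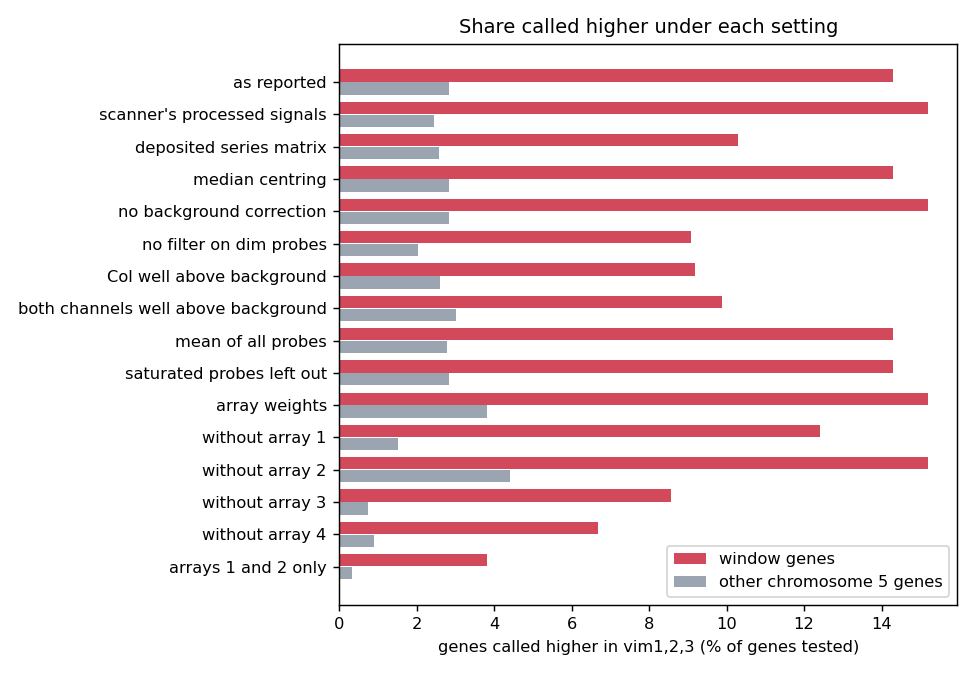
Share of genes called higher in vim1,2,3 (horizontal axis, percent of genes tested) under each setting (vertical axis), for window genes in red and other chromosome 5 genes in grey. The red bar is the longer one in each setting, from 15.2% down to 3.81% on arrays 1 and 2 only.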

How the data were processed

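Spots were quantified by the authors in Agilent's Feature Extraction, version 10.7.3.1 in the deposited headers, giving a median intensity per spot, a processed intensity (background-subtracted and dye-normalized) and a log10 ratio of processed red over green. The deposited series matrix holds log2 ratios, whose centring the sources used here leave unstated. Its 4 columns had medians of -0.09, 0.01, -0.04 and -0.03. On an array, 8 probes differed by more than 1 from the scanner's log2 ratio. With these 8 left out, the columns followed the scanner's log ratios with correlations over probes of 0.998 to 0.999. The same 8 probes were left out of the alternative with the deposited ratios.

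Ratios were recomputed from the median intensities with normexp (offset 50) and loess within arrays, giving controls weight 0, using limma 3.58.1 (R 4.3.3; data.table was version 1.17.8). Control spots (1417 of 45220) and outlier spots were left out, and the spots of a probe were averaged. Of 43603 probes, 34185 matched a locus, for 25347 loci. A gene was its brightest tested probe. Bounds and intensities come from the channels after Aquantile scaling between arrays. A bound sets the brighter RNA against the dim RNA's own signal or, if higher, the dimmest probe still well above background on that array. It may carry dye bias, and it equals the measured ratio for VIM5, AT5G32590, AT5G33393 and AT5G34829.

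The test was limma's lmFit and eBayes on the 4 ratios, adjusted over all genes, and was tested on simulated data. The number of arrays limits the precision. Median spot intensities were 949 to 1718 for vim1,2,3 and 637 to 1270.5 for Col, and 68.4% to 85.1% of spots on an array were clearly above background in a channel. Genes named are VIM1 to VIM6, called window genes (up to 16 that rose and 10 that fell, by size), those next to the 2-fold threshold, up to 4 genes per list with the smallest p, and the genes at the borders. AT5G34830, BZO2H3 and the neighbours were chosen after their values were seen. Lists were reduced to genes with a name in the gene table. The window and lists were chosen with earlier results of these data known, and the counts by flank and by nearby pseudogenes, and arrays 1 and 2 alone, were added after seeing the data. A planned count of CG sites in promoters was not run without sequences.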

Additional observations from a re-analysis of the deposited data

Results flagged for a closer look

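Of 46 genes examined for an array far from the other 3, 5 had one, and chance flags about 1 in 20. AT5G33355 was at 0.50 on array 1 and AT5G35120 at 3.73 on array 3. PHL1 was at -1.56 on array 2, PTM at -0.99 on array 4 and VIM6 (ORTHL) at 1.43 on array 2.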

How the results depend on the processing

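The number of arrays, 4, limits precision. Without 1 array in turn, window genes called higher numbered 7 to 16 and lower 0 to 3, and other chromosome 5 genes 34 to 206 and 8 to 141. On arrays 1 and 2 only, an alternative chosen after seeing the data, 4 window genes were higher and 0 lower, against 15 and 0 of the other chromosome 5 genes, with fewer samples fitted. Genes called lower numbered 4 in the window and 150 elsewhere on the chromosome with the deposited log2 ratios, 6 and 203 with median centring, and 177 elsewhere with the scanner's processed signals. Filters on Col or on both channels left 9 window genes higher. A narrower window held 7 higher and 1 lower of 25 genes (28% and 4%, against 2.96% and 2.08% elsewhere), and a wider one 31 and 4 of 247 (12.6% and 1.62%, against 2.58% and 2.11%). Without a fold threshold, 18 of the 105 window genes were higher and 5 lower, against 239 and 278 of the 4685 genes elsewhere on the chromosome. The window median was -0.093 with the deposited ratios and -0.050 with both channels above background. The median elsewhere was -0.15 with processed signals, -0.11 with the deposited ratios, -0.17 with median centring, -0.026 without a filter and -0.036 with the mean of all probes. The mean of VIM2 turned to -0.14 with processed signals, -0.043 with median centring and -1.36 on arrays 1 and 2 only, and lay between -0.54 and 0.54 without 1 array. VIM3 turned to 0.19 with array weights and lay between -0.70 and 0.27 without 1 array. VIM4 turned to -0.11 with processed signals and with the deposited ratios, -0.19 with median centring and -1.30 on arrays 1 and 2 only, and lay between -0.66 and 0.62 without 1 array. RPS1 turned to -0.00142 with median centring. Without 1 array, RPS1 lay between -0.015 and 0.16, AT5G27690 between -0.39 and 0.089 and AT5G35320 between -0.25 and 0.17. Beyond the settings that remove arrays or genes, the cause was not tested. The fit on ratios within arrays already pairs both RNAs. The labels give 1 group of arrays, so no further pairing was possible. The planned count of CG sites in promoters was not run.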
